A study of Mus musculus with 4 samples.

Results

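The 45 genes described here encode the constitutive proteasome of the mouse together with its activators, its inhibitor and its assembly chaperones. They are the genes on the array whose symbol begins with Psma, Psmb, Psmc, Psmd, Psme, Psmf or Psmg and a digit, apart from the interferon-inducible Psmb8, Psmb9 and Psmb10. In some group, at least 3 of the 4 arrays had to show a probe of the gene well above background, which 19463 genes of the array met in all. The symbols matched 46 genes. Psmb11, a catalytic subunit of the thymus, fell just outside, with its better probe well above background on 1 array of knockout mice given LPS and 2 of wild-type mice given saline. Just inside lay Psma8, an alpha subunit of the testis, on 13 of 16 arrays, and the chaperone Psmg1, on 15. Psmc3ip was matched by its name alone, since it encodes a cofactor of meiotic recombination named after a binding partner, and 44 genes remain without it.

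RNA came from whole amygdala. The donors were C57BL/6J males of 10 weeks, and the tissue was taken 6 h after an injection into the peritoneum. The groups were P2X7 receptor knockout (KO, P2X7R −/−) mice given lipopolysaccharide (LPS, a bacterial cell wall component), KO mice given saline, wild-type (WT) mice given LPS and WT mice given saline. The LPS dose was 7.5 µg per mouse, given elsewhere in the labels as 250 µg/kg, and each group had 4 mice and 4 arrays. The P2X7 receptor is an ATP-gated ion channel, and the deleted part of its gene, P2rx7, is not given in the sources used here. No label ties an array to a mouse, so every p-value rests on the spread among arrays, which may in part be technical.

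The proteasome is the protease that degrades proteins tagged with ubiquitin. Its barrel-shaped 20S core has outer alpha rings, which gate entry, and inner beta rings, which hold the active sites. The 19S cap binds the tagged protein, removes the ubiquitin and threads the unfolded chain into the barrel, while other activators open the barrel without ATP. In neurons the proteasome turns over synaptic proteins. Interferons exchange the catalytic beta subunits for the inducible Psmb8, Psmb9 and Psmb10, which form the immunoproteasome.

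All levels below are log2 of the processed signal of a gene's brightest kept probe relative to the 75th percentile of its array, and differences are log2 ± the model's standard error (SE), for 4 arrays in each group (n = 4) unless stated. A member is called where its adjusted p in limma, taken over all 19463 genes, lies under 0.05. The array 75th percentile was 345.9 to 614.0 on KO arrays and 581.3 to 1164.7 on WT arrays. P2rx7, the targeted gene, was at −1.69 to −0.80 on KO arrays and −0.15 to 0.90 on WT arrays. Neuronal markers were well above background on all 16 arrays (4 of 4 genes). All KO arrays were scanned in one session and all WT arrays in another, on separate slides, so genotype and scan session cannot be told apart, whereas each slide held both treatments. Arrays 1 and 2 of WT saline stood apart, with Cxcl10, an interferon-induced chemokine, at 2.54 and 3.10 against −4.78 and −5.09 on the other WT saline arrays. Serpina3n, an acute-phase gene, was at 1.003 and 0.68 there, against −2.02 and −1.78. Those 2 arrays, together with arrays 1 and 3 of WT LPS, made up slide 1. Whether the treatment labels of slide 1 are right cannot be told from the labels, which touches every value that uses WT arrays, and results are therefore also given without these arrays. Array 1 of KO saline was the farthest of its group from the group mean for 31 of 45 members (68.9%, against 67.1% of all genes), and array 4 of KO LPS for 27 of 45 (60%, against 45.5%).

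Replicate arrays agreed closely for most members. The median SD within a group was 0.16 in KO LPS, 0.23 in KO saline, 0.22 in WT LPS and 0.25 in WT saline, against 0.22, 0.38, 0.29 and 0.27 over all genes in the same groups. The most even member in KO LPS was Psmg4, a chaperone of the alpha ring, with an SD of 0.02. The most variable were Psmg1, with an SD of 3.05 in WT saline, and Psmf1, with SDs of 1.52 in WT LPS and 1.65 in WT saline.

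**Figure D1:**
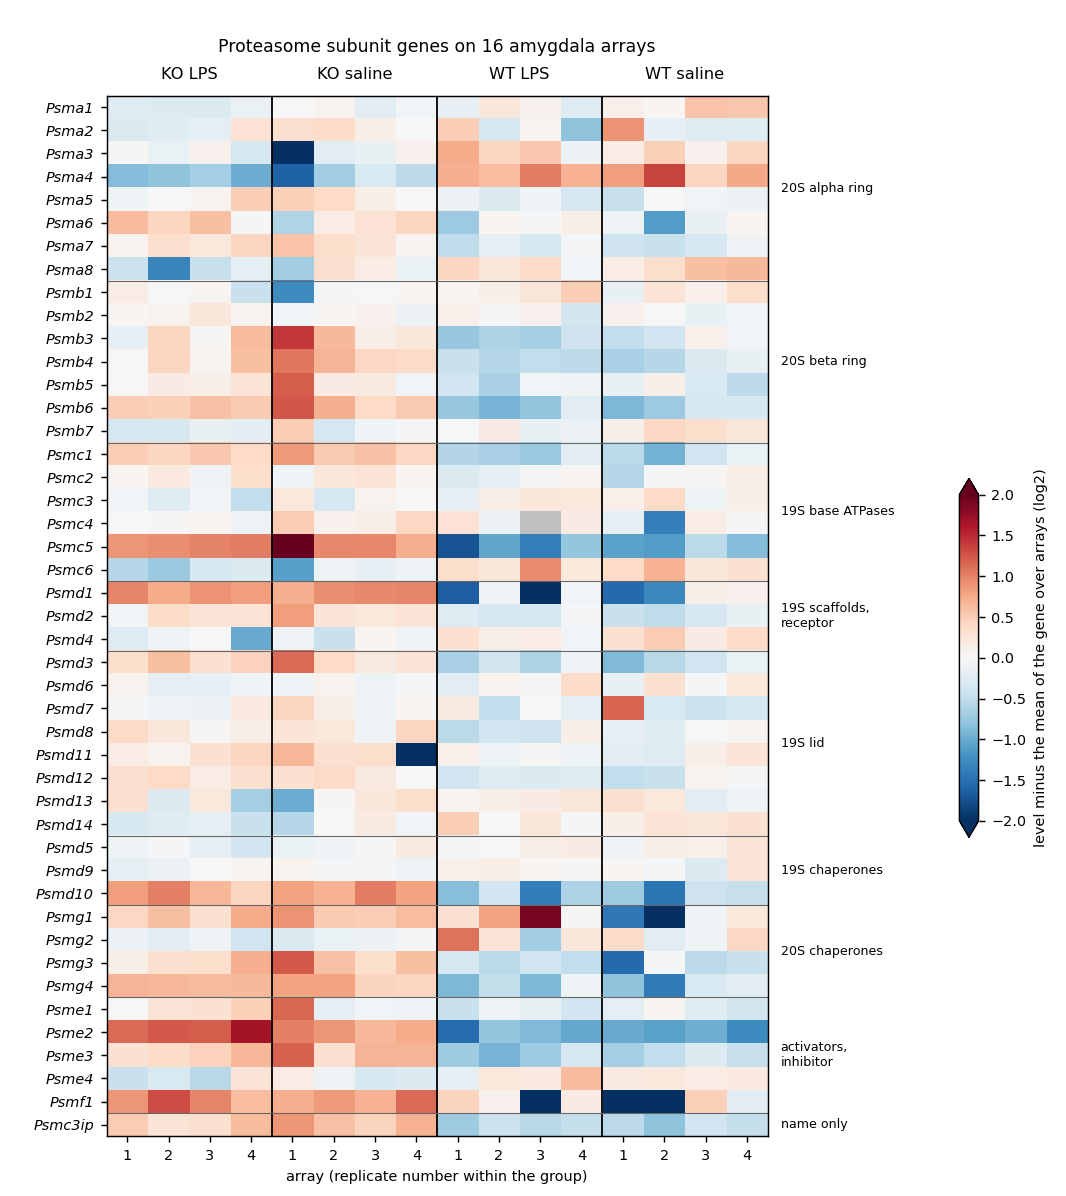
Level of each of the 45 members on each of the 16 arrays, as the difference (log2) from the member's own mean over all arrays, with colours ending at −2 and 2 and grey for the Psmc4 spot left out. Rows are members grouped by role and columns are arrays grouped as KO LPS, KO saline, WT LPS and WT saline. The colour changes between genotypes for members such as Psme2, Psmc5 and Psma4 and changes little between treatments.

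LPS against saline was asked first within each genotype. In KO mice no member of 45 was called by limma, where 3.64% of all genes were, and 1 had an unadjusted p under 0.05 (14.5% of all genes). The median difference over members was −0.12, against −0.09 over all genes, and the members lay between −0.51 for Psma8 and 0.51 for Psma3, an alpha subunit of the core. The 95% confidence interval lay within a 2-fold change in either direction for 39 members (86.7%, against 66.5% of all genes). The exceptions were Psma3, Psma8, Psmd1, Psmd11, Psmf1 and Psmg1, for which these arrays did not bound the response so narrowly.

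Psme2, the beta subunit of the PA28 activator and a textbook interferon-induced gene, was the member with the unadjusted p under 0.05 and was singled out after its values were seen. Its level was 4.56, 4.66, 4.64 and 5.09 on the KO LPS arrays, against 4.44, 4.31, 4.10 and 4.17 on the KO saline arrays. Every KO LPS array thus lay above every KO saline array. The difference was 0.48 ± 0.18 (95% confidence interval 0.10 to 0.86, adjusted p = 0.202), and within slides 3 and 4 it was 0.46 and 0.50. In WT mice the same probe differed by 0.03 ± 0.18 between LPS and saline. The other kept probe of Psme2 differed by 0.46 ± 0.24 in KO mice and 0.61 ± 0.24 in WT mice, neither of them called. Psmc4, an ATPase of the cap, was the other member whose KO groups did not overlap, with a difference of −0.29 ± 0.26 (adjusted p = 0.654). That makes 2 of 45 members (4.44%), where the groups of 11.3% of all genes did not overlap. Psme1, the partner of Psme2 in the PA28 ring, differed by 0.06 ± 0.25 (95% confidence interval −0.47 to 0.58).

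In WT mice no member was called either, where 0.0103% of all genes were, and 1 had an unadjusted p under 0.05 (6.6% of all genes). The median difference was −0.04 for members and for all genes alike, and 41 members (91.1%, against 73.5% of all genes) had an interval within a 2-fold change. The groups of no member were free of overlap, as were those of 4.79% of all genes. The member with the low unadjusted p was Psmg1, which encodes a chaperone of alpha ring assembly. It was at −0.03, 0.46, 1.56 and −0.33 on the WT LPS arrays, against −1.77, −6.70, −0.41 and −0.13 on the WT saline arrays. The second WT saline array was far below the rest. The difference was 2.67 ± 0.99 (adjusted p = 0.643), and within slide 2, which lacks that array, the difference was 0.34.

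The response to LPS was then compared between genotypes as an interaction, the response in KO minus that in WT. No member passed in limma, and 0 had an unadjusted p under 0.05, where 0.036% of all genes were called and 6.9% had such a p. The smallest adjusted p of a member was 0.756, for Psmg1. Without arrays 1 and 2 of WT saline the count called stayed at 0 in KO (4.9% of all genes called), in WT (3.14%, against 0.0103% with all arrays) and for the interaction (0.00514%). Of the 68 kept probes of the members, 0 were called in KO mice (3.04% of all probes), 0 in WT mice and 0 for the interaction (0.00706% of all probes).

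**Figure D2:**
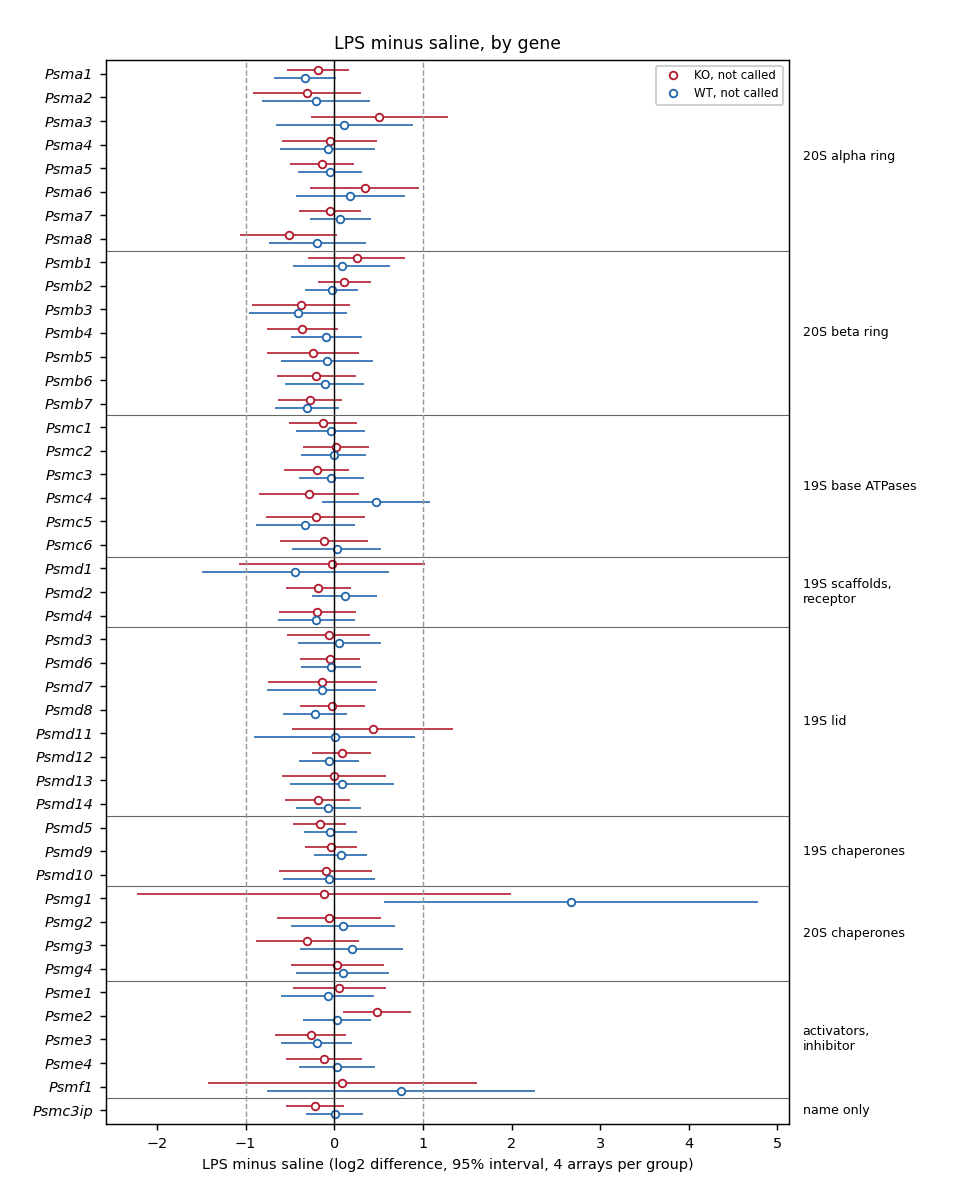
Difference between LPS and saline (log2) of each member, with its 95% confidence interval, in KO mice and in WT mice. Members run down the page by role, the dashed lines at −1 and 1 mark a 2-fold change, and no member was called. The interval of Psmg1 in WT mice is the widest of those that leave 0 out.

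Between genotypes the picture was another. After saline 20 of 45 members differed between KO and WT (44.4%), a share below the 50.9% of all genes called in that comparison, but the calls ran mostly one way. Called higher were 18 members (40%, against 28.6% of all genes) and called lower 2 (4.44%, against 22.3%). After LPS 21 members were called (46.7%, against 47.2%), 17 higher (37.8%, against 25.9%) and 4 lower (8.89%, against 21.2%). The median difference was 0.39 after saline and 0.26 after LPS, where all genes had medians of 0.07 and 0.05. The groups did not overlap for 22 members after saline (48.9%, against 46.1% of all genes) and for 23 after LPS (51.1%, against 51.9%). In both comparisons 18 members were called, 16 of them higher and 2 lower in each, and the share of all genes called in both is not given. The comparisons share no array, but they share the probe of each gene and its pooled spread. Genotype and scan session are tied in both, so they are not independent repeats. Psmf1 and Psmg1 were called only after saline, Psma8, Psmd8 and Psmd14 only after LPS, and 22 in neither, although no member's difference between genotypes changed with treatment past the threshold of the interaction.

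The one-sidedness depended on the background correction, on quantile normalization and on the probe read for each gene. Median scaling kept it, with 18 higher and 3 lower after saline (49.4% of all genes called) and 16 and 4 after LPS (45.3%). Without a filter on dim probes it was 18 and 2 after saline (44.5%) and 16 and 3 after LPS (37.4%). With probes well above background on all 16 arrays, 43 members gave 19 and 3 (50.8%) and 17 and 3 (46.5%). With normexp background correction, which moved the median of all genes to 0.43 after saline, 24 members were called there (61% of all genes), 13 higher and 11 lower, around a member median of 0.03. After LPS it gave 15 higher and 7 lower (33.5% of all genes called). Quantile normalization gave 14 higher and 8 lower after saline (51.7% of all genes) and 14 higher and 6 lower after LPS (48.5%). Its medians were 0.16 for members and −0.01 for all genes after saline, and 0.02 and −0.004 after LPS. For all alternatives here, the share of all genes counts both directions together. The mean of all kept probes of a gene gave 14 higher and 6 lower after saline (51.3% of all genes) and after LPS (47.1%). The probe nearest the 5′ end gave 15 higher and 6 lower after saline (52.7%) and 13 higher and 7 lower after LPS (48.7%). Without arrays 1 and 2 of WT saline, 14 members were called after saline, 12 higher and 2 lower (35.8% of all genes called). Without slide 1 the counts were 16 after saline (37.4% of all genes) and 14 after LPS (33.4%). With slide as a random block 19 were called after saline (44%) and 17 after LPS (40.3%). The mean level of 4 neuronal markers moved with genotype too, at 5.10 to 5.26 on the KO LPS arrays and 5.12 to 5.42 on the KO saline arrays, against 4.12 to 4.65 on the WT LPS arrays and 3.86 to 4.70 on the WT saline arrays. Markers of the basolateral amygdala and cortex went the other way (4 of 4 measured), at −0.37 to −0.22 on the KO LPS arrays and −0.90 to 0.20 on the KO saline arrays, against −0.03 to 0.49 on the WT LPS arrays and 0.87 to 1.09 on the WT saline arrays. Markers of the striatum and central amygdala (4 of 4 measured) were at 0.47 to 0.65 on the KO LPS arrays and 0.42 to 0.71 on the KO saline arrays, against 0.64 to 2.60 on the WT LPS arrays and 1.15 to 1.95 on the WT saline arrays. The part of these lists in the members' differences was not tested, and in whole tissue fewer cells of a type and less RNA per cell cannot be told apart.

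**Figure D3:**
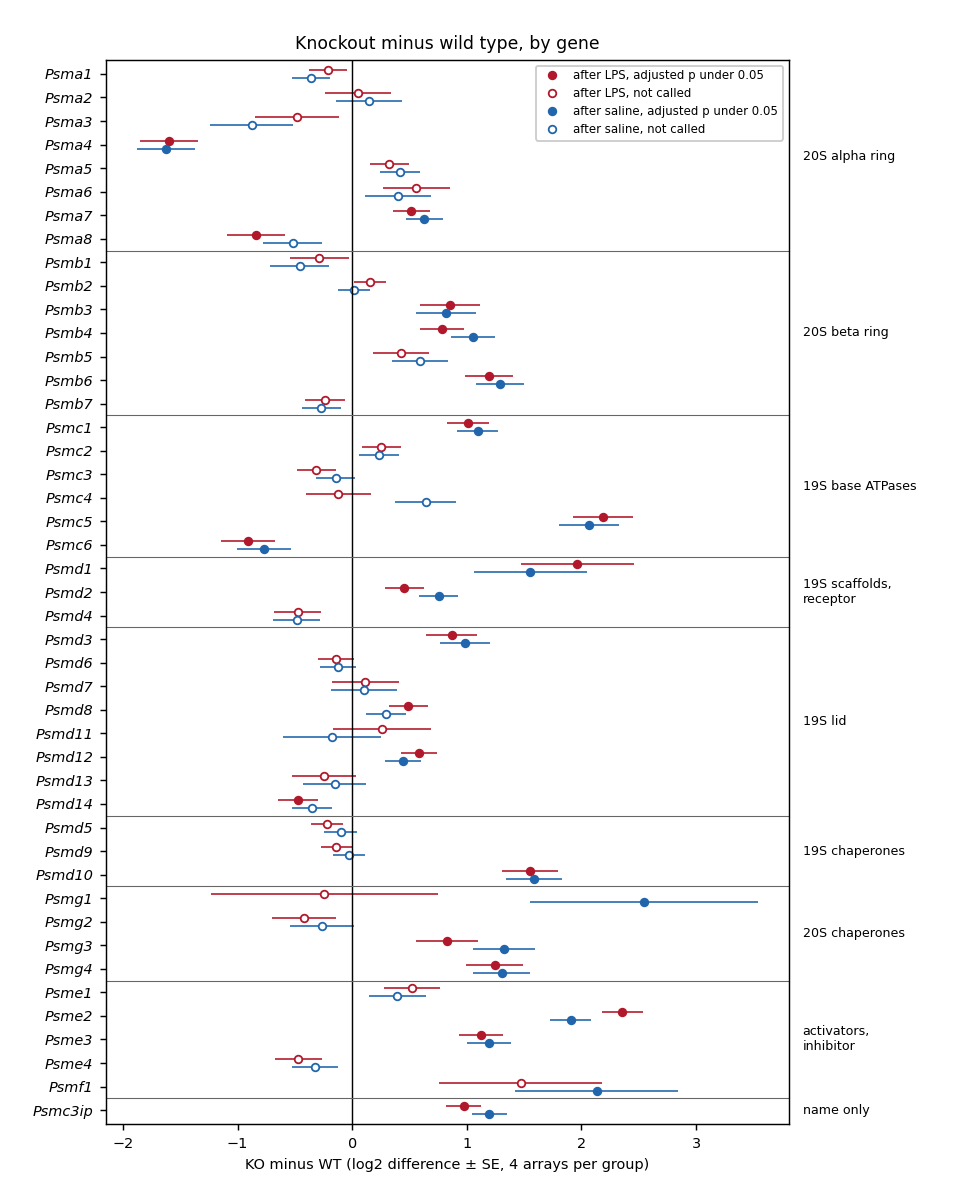
Difference between KO and WT (log2) of each member, with bars of ± the standard error, after LPS and after saline, 4 arrays per group. Members run down the page by role, and filled symbols mark called members. Psma4 is the member farthest below 0 under both treatments.

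The alpha ring, whose subunits stand in equal numbers in each barrel, held calls in opposite directions. Of 8 alpha genes 1 was called higher and 1 lower in KO after saline (12.5% each, against 28.6% and 22.3% of all genes). After LPS 1 was called higher and 2 lower (12.5% and 25%, against 25.9% and 21.2%). Psma4 carried the lower calls. Its level was 0.61, 0.67, 0.79 and 0.49 on the KO LPS arrays, against 2.20, 2.09, 2.50 and 2.18 on the WT LPS arrays. After saline it was −0.14, 0.78, 1.17 and 0.96 on the KO arrays, against 2.31, 2.83, 1.90 and 2.24 on the WT arrays. All 8 KO arrays therefore lay below all 8 WT arrays. The difference was −1.63 ± 0.25 after saline (3.09-fold lower, adjusted p = 0.000117) and −1.60 ± 0.25 after LPS (3.04-fold lower, adjusted p = 0.000138), and the authors' deposited table gives 3.09-fold and 3.04-fold down for the same probe. Psma7, called higher at 0.63 ± 0.16 after saline and 0.51 ± 0.16 after LPS, turned to −0.12 after saline under normexp correction. Psma8, the testis form, was called lower after LPS alone, at −0.84 ± 0.26 (adjusted p = 0.0142), against −0.52 ± 0.26 after saline (adjusted p = 0.103). Its probe was well above background on 2 of 4 KO LPS arrays and 4 of 4 WT LPS arrays, so the size of that difference is uncertain. Psma1, Psma2, Psma3, Psma5 and Psma6 passed in neither comparison, with differences between −0.88 for Psma3 and 0.41 for Psma5 after saline and between −0.48 for Psma3 and 0.56 for Psma6 after LPS.

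The beta ring held 3 called members of 7, all higher in KO under both treatments. That is 42.9%, against 28.6% of all genes called higher after saline and 25.9% after LPS. Psmb6 carries the caspase-like active site. Its level was 5.21, 5.21, 5.32 and 5.25 on the KO LPS arrays, against 3.97, 3.80, 3.94 and 4.51 on the WT LPS arrays. After saline it was 5.96, 5.44, 5.13 and 5.26 on the KO arrays, against 3.83, 4.00, 4.40 and 4.41 on the WT arrays, so that the genotypes did not overlap. The difference was 1.29 ± 0.21 after saline (2.44-fold, adjusted p = 0.000167) and 1.19 ± 0.21 after LPS (2.29-fold, adjusted p = 0.000323). Psmb4 and Psmb3, subunits without an active site, differed by 1.05 ± 0.19 and 0.82 ± 0.26 after saline and by 0.78 ± 0.19 and 0.85 ± 0.26 after LPS. The other kept probe of Psmb3 was not called and had the opposite sign, at −0.41 ± 0.38 after saline and −0.46 ± 0.41 after LPS. Psmb5, with the chymotrypsin-like site, and Psmb7, with the trypsin-like site, were not called, at 0.59 ± 0.24 and −0.27 ± 0.17 after saline and 0.43 ± 0.24 and −0.24 ± 0.17 after LPS. Psmb1 and Psmb2, the remaining beta genes, lay between −0.46 and 0.16 in these comparisons.

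Psmc1 to Psmc6 encode the ATPases that unfold the substrate and open the alpha gate, and they work as a single ring. In KO 2 of 6 were called higher and 1 lower, after saline and after LPS alike. These are 33.3% and 16.7%, against 28.6% and 22.3% of all genes after saline and 25.9% and 21.2% after LPS. Psmc5 had the largest difference of the ring, at 4.14, 4.19, 4.25 and 4.29 on the KO LPS arrays, against 1.53, 2.22, 1.89 and 2.48 on the WT LPS arrays. After saline it was 5.28, 4.21, 4.21 and 3.99 on the KO arrays, against 2.19, 2.14, 2.71 and 2.39 on the WT arrays. By this probe the difference was 2.07 ± 0.26 after saline (4.19-fold, adjusted p = 2.14e-05) and 2.19 ± 0.26 after LPS (4.55-fold, adjusted p = 1.4e-05), with no overlap, but its other probe went the opposite way, as described below. Psmc1 was higher by 1.09 ± 0.18 after saline and 1.01 ± 0.18 after LPS. Psmc6 was lower, by −0.77 ± 0.23 after saline (adjusted p = 0.013) and −0.91 ± 0.23 after LPS (adjusted p = 0.00525). Psmc2, Psmc3 and Psmc4 were not called and lay between −0.15 and 0.64 after saline and −0.31 and 0.25 after LPS. One Psmc4 spot, on array 3 of WT LPS, was marked as an outlier by the scanner software, so its WT LPS value rests on 3 arrays.

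The scaffolds of the cap, Psmd1 and Psmd2, were both called higher, and the ubiquitin receptor Psmd4 was not, at −0.48 ± 0.20 under each treatment. Psmd1 was at 2.56, 2.33, 2.49 and 2.43 on the KO LPS arrays, against −0.06, 1.51, −1.03 and 1.53 on the WT LPS arrays. After saline it was 2.30, 2.51, 2.55 and 2.56 on the KO arrays, against 0.03, 0.29, 1.71 and 1.68 on the WT arrays. The KO arrays were even, while the WT arrays of slide 1, at most 0.29, lay apart from those of slide 2, at least 1.51. Its difference was 1.55 ± 0.49 after saline (adjusted p = 0.0164) and 1.97 ± 0.49 after LPS (adjusted p = 0.00448). Without arrays 1 and 2 of WT saline the saline difference was 0.79 and no longer called. Psmd2 was higher by 0.75 ± 0.17 after saline and 0.46 ± 0.17 after LPS by its brightest probe alone, and the LPS call was kept in 10 of 16 fits that left out 1 array.

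In the lid, which holds the deubiquitinase Psmd14 and its scaffolding partners, 2 of 8 members were called higher after saline (25%, all genes 28.6%). After LPS 3 were called higher and 1 lower (37.5% and 12.5%, against 25.9% and 21.2% of all genes). Psmd3 was at 6.44, 6.68, 6.41 and 6.54 on the KO LPS arrays, against 5.43, 5.72, 5.46 and 5.98 on the WT LPS arrays, without overlap. It was higher by 0.99 ± 0.22 after saline (adjusted p = 0.00182) and 0.87 ± 0.22 after LPS (adjusted p = 0.00468). Psmd14 was called lower after LPS, at −0.47 ± 0.17 (adjusted p = 0.0349), against −0.35 ± 0.17 after saline (adjusted p = 0.102), and that call was kept in 11 of 16 fits without 1 array. Psmd8 was called higher after LPS, at 0.49 ± 0.17 (adjusted p = 0.0278), against 0.29 ± 0.17 after saline (adjusted p = 0.163). Psmd12 was called higher by its brightest probe, at 0.44 ± 0.16 after saline, where normexp correction turned it to −0.33, and 0.58 ± 0.16 after LPS. Psmd6, Psmd7, Psmd11 and Psmd13 lay between −0.17 and 0.10 after saline and −0.25 and 0.26 after LPS.

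Chaperones that help to assemble the particles were called higher or not at all by their brightest probes. Of 3 chaperones of the base 1 was called higher under each treatment (33.3%). Of 4 chaperones of the core 3 were called higher after saline (75%) and 2 after LPS (50%). Over all genes 28.6% were called higher after saline and 25.9% after LPS. Psmd10 (gankyrin) escorts ATPase subunits during assembly of the base. Its level was 0.87, 1.05, 0.71 and 0.48 on the KO LPS arrays, against −0.81, −0.34, −1.34 and −0.59 on the WT LPS arrays. After saline it was 0.85, 0.74, 1.07 and 0.85 on the KO arrays, against −0.67, −1.40, −0.36 and −0.42 on the WT arrays, again without overlap. The difference was 1.59 ± 0.25 after saline (3.01-fold, adjusted p = 0.000109) and 1.55 ± 0.25 after LPS (2.93-fold, adjusted p = 0.000141). The other chaperones of the base, Psmd5 and Psmd9, differed by −0.10 ± 0.14 and −0.03 ± 0.14 after saline and by −0.22 ± 0.14 and −0.14 ± 0.14 after LPS. Of the chaperones of the core, Psmg3 and Psmg4 form a pair. Psmg4 was higher by 1.30 ± 0.25 after saline (adjusted p = 0.000561) and 1.24 ± 0.25 after LPS (adjusted p = 0.000853), and Psmg3 by 1.32 ± 0.27 and 0.83 ± 0.27. The other pair is Psmg1 and Psmg2. Psmg1 was called after saline, at 2.55 ± 0.99 (adjusted p = 0.0429), with the dim WT saline arrays given above, was at 0.56 without arrays 1 and 2 of WT saline, kept its call in 5 of 16 fits without 1 array, and was at −0.24 ± 0.99 after LPS. Psmg2 was not called by its brightest probe, at −0.26 ± 0.28 and −0.42 ± 0.28. Its other kept probe was called lower, at −1.76 ± 0.28 after saline and −1.39 ± 0.28 after LPS.

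Among the activators Psme2 had the smallest adjusted p of all members between genotypes. The KO levels of 4.10 to 5.09 given above stood against 1.91, 2.66, 2.55 and 2.40 on the WT LPS arrays and 2.42, 2.35, 2.45 and 2.17 on the WT saline arrays. The lowest KO array was thus above the highest WT array. The difference was 1.91 ± 0.18 after saline (3.75-fold, adjusted p = 1.53e-06) and 2.36 ± 0.18 after LPS (5.12-fold, adjusted p = 2.52e-07). Its PA28 partner Psme1 was not called, at 0.39 ± 0.25 and 0.52 ± 0.25. Psme3, which forms the nuclear PA28 gamma ring, was higher by 1.19 ± 0.19 after saline (adjusted p = 0.000131) and 1.12 ± 0.19 after LPS (adjusted p = 0.000231). Psme4, the large single-chain activator PA200, was not called, at −0.32 ± 0.20 and −0.47 ± 0.20. The inhibitor Psmf1 (PI31) was called higher after saline by its brightest probe, at 2.13 ± 0.71 (adjusted p = 0.021), which turned to −0.49 under normexp correction. That probe was at −0.56, −0.44, −0.58 and −0.15 on the KO saline arrays, against −4.13, −3.79, −0.81 and −1.51 on the WT saline arrays. The dim WT arrays were those of slide 1, and without them the difference was 0.73. After LPS it was 1.47 ± 0.71 (adjusted p = 0.102). Psmc3ip, outside the proteasome, was higher by 1.20 ± 0.15 after saline and 0.97 ± 0.15 after LPS.

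Several members carried more than one kept probe, and the probes did not always move alike. The 68 kept probes gave 36 calls after saline (52.1% of all probes called), 24 higher (26.5%) and 12 lower (25.5%) in KO, and 34 after LPS (48.4% of all probes), 21 higher (24%) and 13 lower (24.4%). Kept probes of the same member were called in opposite directions in 4 of 18 multi-probe members after saline (22.2%, against 14.6% of the 6330 genes with several kept probes) and in 2 of 18 after LPS (11.1%, against 13.5%). Psmc5 and Psmd2 did so under both treatments, and their probes are shown because the direction of each gene turns on which is read. Each is 60 bases long, on mouse build mm9 and in the sense of the gene, and capitals mark a stop codon that ends a reading frame otherwise open through the probe. The upstream Psmc5 probe matches chr11:106122563-106122762 and the downstream one chr11:106124192-106124376, both on the plus strand. The upstream Psmd2 probe matches chr16:20660170-20660469 and the downstream one chr16:20663260-20663319, also on the plus strand. The upstream probe of Psmd2 and both of Psmc5 span more bases of the genome, 300, 200 and 185, than they hold, so each crosses an intron.
Psmc5 upstream: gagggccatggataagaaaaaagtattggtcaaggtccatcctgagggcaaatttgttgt
Psmc5 downstream: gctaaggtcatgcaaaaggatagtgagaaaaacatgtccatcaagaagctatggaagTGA
Psmd2 upstream: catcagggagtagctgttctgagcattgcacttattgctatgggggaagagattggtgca
Psmd2 downstream: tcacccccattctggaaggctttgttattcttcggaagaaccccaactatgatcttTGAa

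The upstream Psmc5 probe was lower in KO, by −1.79 ± 0.30 after saline and −1.44 ± 0.30 after LPS, where the downstream one, at the end of the reading frame, was higher by 2.07 and 2.19. The authors' deposited table shows the same split, with 3.47-fold down and 4.19-fold up after saline and 2.72-fold down and 4.55-fold up after LPS. The upstream Psmd2 probe was lower by −1.16 ± 0.24 after saline and −1.26 ± 0.24 after LPS, where the downstream one was higher by 0.75 and 0.46. All 4 probes were well above background on all 16 arrays. Psmf1 had a kept probe at −0.97 ± 0.21 beside its brightest one at 2.13 after saline. Its remaining kept probe was well above background on 0 of 4 KO saline arrays and 4 of 4 WT saline arrays, which gives only a bound of at least 2.45-fold lower in KO, set against the lowest signal well above background on each KO array. Psmd12 had kept probes at 1.15 ± 0.40 and −0.54 ± 0.16 beside its brightest one at 0.44 after saline. The other probe of Psme2 was also called higher, at 1.11 ± 0.24 after saline and 0.96 ± 0.24 after LPS, and that of Psmc6 was called lower, at −1.12 ± 0.27 and −0.81 ± 0.27. The other probe of Psma4 was lower by less and not called, at −0.48 ± 0.27 (adjusted p = 0.151) after saline and −0.55 ± 0.27 (adjusted p = 0.108) after LPS, so the size of that difference rests on the brightest probe. Members whose brightest probe was not called could hold a called probe as well. After saline Psmd7, a lid subunit, had called probes at 1.67 ± 0.16 and 1.01 ± 0.15. Called probes then also stood at −1.87 ± 0.45 for Psmd14, −1.76 ± 0.28 for Psmg2 and −1.03 ± 0.25 for Psmc2. Those of Psmd11 and Psmd4 were at 0.81 ± 0.28 and −0.62 ± 0.25. After LPS Psme4 had a called probe at −2.04 ± 0.61, well above background on 1 of 4 KO LPS arrays and 4 of 4 WT LPS arrays. All were singled out after their values were seen. The position of the probe along the transcript gave no constant side: the downstream probe was the higher one in 7 of 14 member pairs after saline and 6 of 14 after LPS, against 52.9% and 53.7% of 4706 pairs over all transcripts. Whether such probes read different transcripts of a gene was not tested.

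**Figure D4:**
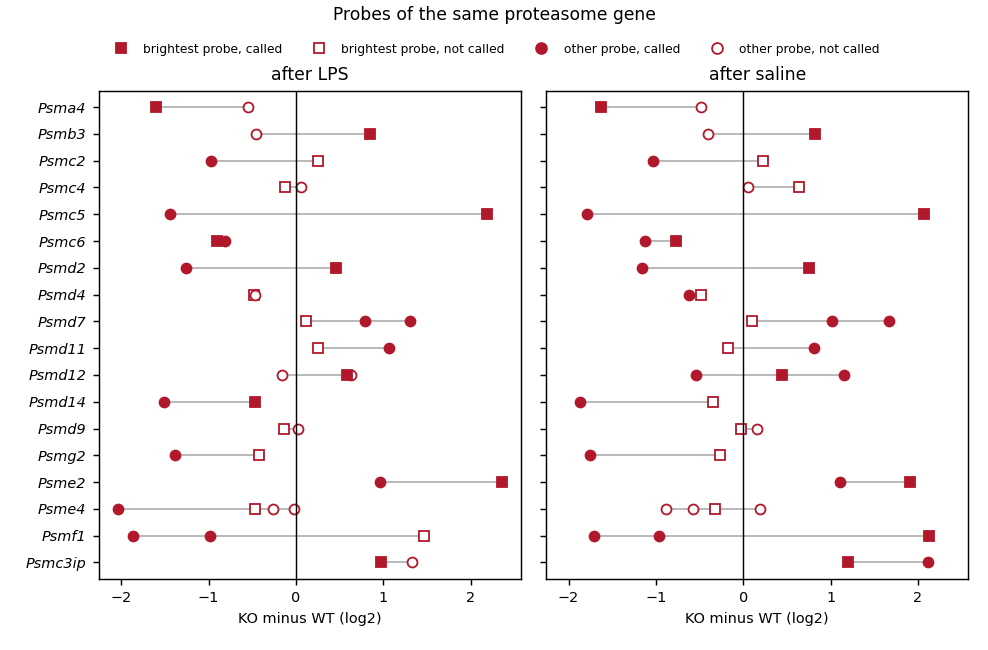
Difference between KO and WT (log2) of every kept probe of the members with several kept probes, after LPS and after saline. Squares mark the brightest probe, which stands for the gene, and circles the others. One Psmf1 circle after saline, the lowest of that gene, has only a bound, because 0 of 4 KO saline arrays lay well above background. The probes of Psmc5 and Psmd2 lie on opposite sides of 0 under both treatments.

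The catalytic subunits were set against the inducible subunits that can take their places, which the rule for members left out. The promoters of these genes that held a motif searched for are shown as the 250 bases before the start (RefSeq, build GRCm38.p6), because these genes are compared next. Capitals mark a match, on either strand, to TGACNNNGC, the core of the antioxidant response element through which NRF1 and NRF2 act, or to TTCNNNGAA, the interferon-gamma activated site. Psmb5 lies at chr14:54617996-54618245 on the minus strand, Psmb6 at chr11:70525107-70525356 and Psmb8 at chr17:34197945-34198194, both on the plus strand.
Psmb5: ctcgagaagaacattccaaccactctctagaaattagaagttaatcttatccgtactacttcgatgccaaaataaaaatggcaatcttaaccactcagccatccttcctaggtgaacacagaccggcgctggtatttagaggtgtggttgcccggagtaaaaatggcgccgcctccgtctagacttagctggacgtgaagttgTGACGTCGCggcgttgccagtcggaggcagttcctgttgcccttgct
Psmb6: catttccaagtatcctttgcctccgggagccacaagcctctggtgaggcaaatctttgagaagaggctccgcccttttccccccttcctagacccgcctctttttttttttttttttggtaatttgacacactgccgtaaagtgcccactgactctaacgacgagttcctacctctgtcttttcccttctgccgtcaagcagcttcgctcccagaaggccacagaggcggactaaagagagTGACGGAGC
Psmb8: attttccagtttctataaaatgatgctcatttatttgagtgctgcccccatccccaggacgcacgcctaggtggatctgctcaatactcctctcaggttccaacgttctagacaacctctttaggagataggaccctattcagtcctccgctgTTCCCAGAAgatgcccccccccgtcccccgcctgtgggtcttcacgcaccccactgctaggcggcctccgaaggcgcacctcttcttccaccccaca

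The antioxidant core TGACGTCGC of Psmb5 ends 38 bases before the start, TGACGGAGC of Psmb6 ends at the start, and the activated site TTCCCAGAA of Psmb8 ends 88 bases before it. Of 45 members 37 had a promoter entry, without Psma8, Psmb1, Psmb2, Psmb7, Psmc3, Psmd3, Psmd7 and Psmg2. The antioxidant core was found in 5 of the 37 (13.5%, against 11.5% of 27025 genes), namely Psmb5, Psmb6, Psmc6, Psmd9 and Psmd12. The interferon-stimulated response element, GAAA, any 2 bases and GAAA, was found in Psmb3, Psmd4 and Psmd9, 3 of 37 (8.11%, against 3.46%), and TTCNNNGAA in Psmg1 alone, 1 of 37 (2.7%, against 8.13%). Of the 3 inducible subunits 0 held the antioxidant core, 0 the interferon-stimulated response element and 1, Psmb8, the activated site. A match describes letters and is not a binding site.

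Psmb8, the inducible partner of Psmb5, was at 1.68, 1.52, 1.85 and 1.97 on the KO LPS arrays, against 0.08, −0.77, −0.80 and −0.66 on the KO saline arrays. Psmb5 was at 3.84, 4.01, 3.97 and 4.10 on the KO LPS arrays, against 5.05, 4.02, 4.03 and 3.80 on the KO saline arrays. Psmb8 was higher on every KO LPS array than on any KO saline array, by 2.29 ± 0.53 (adjusted p = 0.0232), while the treatments overlapped for Psmb5, at −0.24 ± 0.24. The difference between their LPS responses was 2.53, with an exact permutation p of 0.0286, the smallest that 4 against 4 arrays allow, and 0.0571 after Benjamini-Hochberg adjustment over 6 such tests. Psmb9, the partner of Psmb6, was at 0.54, 0.77, 0.65 and 0.71 on the KO LPS arrays, against −0.13, −0.91, −1.06 and −0.78 on the KO saline arrays, without overlap. It was not called over all genes, and its LPS response of 1.39 and that of −0.20 for Psmb6 differed by 1.59 (exact permutation p = 0.0286, adjusted 0.0571). Psmb10 and Psmb7 changed by 0.26 and −0.27, a difference of 0.53 with the same p. In KO mice each LPS array thus had a higher inducible-over-constitutive value than each saline array in all 3 pairs.

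In WT mice the differences ran the same way, at 1.25 for Psmb8 and Psmb5 (exact permutation p = 0.143, adjusted 0.143), 1.38 for Psmb9 and Psmb6 (exact permutation p = 0.114, adjusted 0.137) and 0.58 for Psmb10 and Psmb7 (exact permutation p = 0.0857, adjusted 0.129). The WT groups overlapped in each pair. Psmb8 was at 0.75, 1.41, 1.99 and 1.47 on the WT LPS arrays, against 1.35, 1.77, −1.24 and −0.92 on the WT saline arrays, of which the high ones are arrays 1 and 2. Within slide 2, which lacks them, Psmb8 was higher after LPS by 2.52 (adjusted p = 0.0194), and within slide 1 it was at −0.19. Within slides 3 and 4 of the KO mice it was at 2.49 and 2.09. Whether the exchange differed between genotypes was not tested. Psmb10 stood higher in KO irrespective of LPS, by 1.82 ± 0.20 after saline and 1.80 ± 0.20 after LPS, where Psmb7, the subunit it replaces, was at −0.27 and −0.24.

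**Figure D5:**
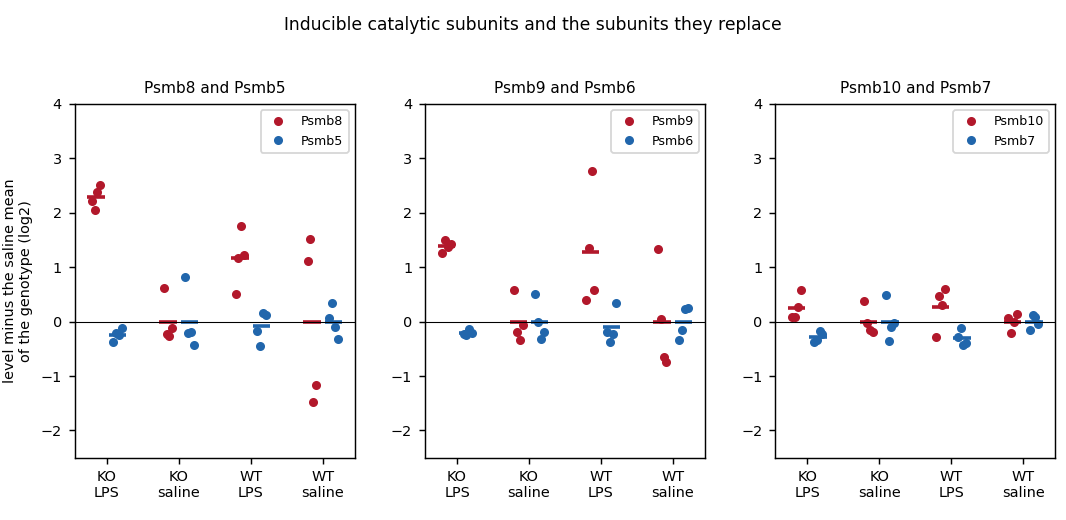
Level of each inducible catalytic subunit and of the constitutive subunit it replaces on each array, as the difference (log2) from the gene's own saline mean in the same genotype, in KO LPS, KO saline, WT LPS and WT saline. Points are arrays and horizontal bars group means. Psmb8 is higher on all 4 KO LPS arrays than on the KO saline arrays, and Psmb5, Psmb6 and Psmb7 show no such step.

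Other genes of the pathway, from lists that hold no member, moved with genotype in both directions as well. Over all genes 28.6% were called higher and 22.3% lower in KO after saline, and 25.9% and 21.2% after LPS. Of 11 proteins that belong to, bind or process on the proteasome, 5 were called higher (45.5%) and 2 lower (18.2%) in KO after saline. Among the 11 are the cap subunits Adrm1 and Sem1 and the core chaperone Pomp, whose symbols fall outside the rule for members. The same numbers were called after LPS, and the medians were 0.35 and 0.11. Ecpas, which tethers the cap to the core, was higher by 2.31 ± 0.22 after saline (adjusted p = 1.42e-06) and 1.90 ± 0.22 after LPS (adjusted p = 8.93e-06). Of 6 ubiquitin genes and activating enzymes, 3 were called higher (50%) and 1 lower (16.7%) after saline. After LPS 2 were called higher and 2 lower (33.3% each). Rps27a, which encodes ubiquitin fused to a ribosomal protein, was higher by 2.55 ± 0.30 and 3.07 ± 0.28 (adjusted p = 1.5e-05 and 1.72e-06). Uba1, the main ubiquitin-activating enzyme, was lower by −1.95 ± 0.21 and −2.02 ± 0.21 (adjusted p = 5e-06 and 4.09e-06). Of 10 genes of the p97 segregase and of ubiquitin shuttles, 3 were called higher (30%) and 2 lower (20%) after saline. After LPS 3 were called higher (30%) and 1 lower (10%).

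The next list held 8 genes around NRF1 and NRF2, the factors that drive proteasome genes when the protease fails or oxidants rise. In KO 2 were called higher (25%, against 28.6% of all genes) and 3 lower (37.5%, against 22.3%) after saline. After LPS 1 was called higher (12.5%, against 25.9%) and 0 lower (against 21.2%). Maff had the lowest saline difference of the list, at −1.82, which leaned on arrays 1 and 2 of WT saline. It was at 0.80 and 0.999 there, against −1.82 and −1.81 on the other WT saline arrays. The latter lay within the KO saline range of −2.76 to −1.78. Counts for this list without arrays 1 and 2 of WT saline are not given, and these arrays also enter its WT response to LPS. The same list held the LPS calls outside the immunoproteasome. In KO mice Maff and Mafk, small partners of NRF1 and NRF2, were higher after LPS by 3.85 ± 0.57 (adjusted p = 0.00214) and 1.26 ± 0.18 (adjusted p = 0.00205). The other 6 genes were not called, so 25% of the list was called higher, against 2.5% of all genes. Psmb5 and Psmb6, whose promoters held the antioxidant core, lay at −0.24 and −0.20 after LPS in KO mice. Whether Maff, Mafk, NRF1 or NRF2 acts on them was not tested. None of the associated proteins, ubiquitin genes or p97 genes was called for LPS in either genotype, and no gene of the NRF list was called in WT mice.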

How the data were processed

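The submitters' processing notes name Agilent Feature Extraction 9.5 as the source of the deposited per-array intensity values. Background subtraction and spatial detrending had been applied inside every array, per the file headers. A deposited list of the authors' log2 group means served for comparison only. The authors' fold change (a linear ratio of group means) was read from their deposited table. In both, 32 columns of detection calls were not used. Coordinates are those of the files, on mm9.

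Signals were scaled by the 75th percentile of each array. Probes (60 bases) were named through RefSeq accession (24844) or kept the file's name (16330). Of these, 28347 were kept, well above background on at least 3 arrays of some group, and the brightest kept probe stood for each gene. No pair of arrays differed by a median under 0.136 (log2), so none was a copy.

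limma 3.58.1 (R 4.3.3) was fitted to 4 group means over 16 arrays, with Benjamini-Hochberg adjustment over 19463 genes. The number of arrays limits the precision. The model pools the spread, so a group whose arrays disagree widens every error of that gene. The members, their roles and the lists were chosen with earlier results of these data known. Where more than 10 members were called, those named were the 6 with the largest and the 6 with the smallest differences, the leading member of each role, members with probes called in opposite directions or turned by another scaling, and up to 3 related genes per comparison. The other members are accounted for beside them. Alternatives covered background correction, scaling, filters, probe choice, slides, replicate numbers and left-out arrays.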

Additional observations from a re-analysis of the deposited data

Results flagged for a closer look

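In groups of 4 arrays, the highest or lowest array of a member was set against its nearest neighbour, as a share of the group's range, against Dixon's 95% critical value. Of 180 groups of values tested, 13 had an array past it, and chance flags about 1 in 20. Array 1 of KO saline held 5 of them. Psma3, Psmb1 and Psmc6 were low there, at 0.66, 2.39 and 2.43, and Psmd2 and Psme1 were high, at 4.69 and 4.59. The flagged values of that array thus lay on both sides. Without that array the median saline difference between genotypes was 0.29 over members, against 0.39 with all arrays. Over all genes it was 0.04 against 0.07. Array 4 of KO LPS was high for Psma1, at 3.58, and array 4 of KO saline was low for the lid subunit Psmd11, at 2.41. Array 1 of WT LPS was low for Psma6, at 2.41, and for Psmd12, at 3.39, and array 3 of WT LPS was low for the inhibitor Psmf1, at −4.07. Array 1 of WT saline was high for Psma2, at 5.90, and for Psmd7, at 4.67, and array 2 of WT saline was low for Psma6, at 2.03. Of the members affected, Psmc6, Psmd2, Psmd12 and Psmf1 were called between genotypes. Over the fits without 1 array the saline difference was −0.86 to −0.53 for Psmc6, 0.60 to 0.82 for Psmd2, 0.35 to 0.54 for Psmd12 and 1.61 to 2.72 for Psmf1. The flagged arrays of Psmd12 and Psmf1 were WT LPS arrays, so leaving them out does not move these saline differences. No such range is given for the differences after LPS, which those arrays enter.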

How the results depend on the processing

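The counts of members called for LPS, in either genotype, and for the interaction were 0 under every alternative that was run. Leaving out single arrays gave 16 to 23 members called between genotypes after saline and 17 to 25 after LPS. Of all genes, 48.9% were called in the fit with 23 members, 41% in that with 17 and 55.7% in that with 25. Every other setting stayed within 1.5 times of the reported counts. Without array 1 of KO saline 20 were called after saline, 17 higher and 3 lower (49.7% of all genes called). Correcting for probe base composition gave 14 higher and 7 lower after LPS (46.9% of all genes called). Of 27 calls named for a single member, 349 repeats under other settings kept 295, lost 41 and reversed 13, and 432 repeats without 1 array kept 402, lost 30 and reversed 0. Those lost were Psmg1 after saline (kept in 5 of 16), Psmd12 (13), Psmd1 (14) and Psmf1 (14) after saline, and Psmd2 (10), Psmd14 (11) and Psma8 (15) after LPS. Under normexp correction the saline differences of Psma7, Psmd12 and Psmf1 turned to −0.12, −0.33 and −0.49. The mean of all kept probes gave −0.20 for Psmd2 and −0.18 for Psmf1 after saline and −0.40 for Psmd2 after LPS. The probe nearest the 3′ end gave −0.54 for Psmd12 and −1.71 for Psmf1 after saline, the Psmf1 probe not well above background on any KO saline array. The probe nearest the 5′ end gave −1.79 for Psmc5, −1.16 for Psmd2 and −0.97 for Psmf1 after saline, and −1.44 for Psmc5 and −1.26 for Psmd2 after LPS. These reversals come from reading other probes, apart from those under normexp, whose cause was not tested. The probe-end settings, the correction for base composition and the sets without slide 1 or without arrays 1 and 2 of WT saline were chosen after seeing the data. Replicate numbers did not pair the arrays, with correlations of −0.38 to 0.34 between same-numbered arrays and 2 of 16 over 0.1. A fit with the replicate number as a block called 20 members after saline (48% of all genes) and 19 after LPS (44.1%). It called 0 members for LPS (2.96% of all genes in KO and 0 in WT) and 0 for the interaction. The pairs of inducible and constitutive subunits kept their sign in all 27 settings, with Psmb8 minus Psmb5 at 1.95 to 2.64 in KO and 0.78 to 2.47 in WT. Genotype cannot be told apart from scan session, and the dim arrays of Psmf1 and Psmg1 widen their errors in every comparison.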
